A study of Rattus norvegicus with 5 samples.

Results

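The genes described here encode the conjugating enzymes of detoxification, namely UDP-glucuronosyltransferases (UGT), glutathione S-transferases (GST) and sulfotransferases (SULT). They were taken by symbol from an array table, as probe sets with a single gene symbol that begins with Ugt1, Ugt2, Ugt3 or Ugt8, or with Gst of class alpha, mu, pi, theta, omega, kappa or zeta, or Sult, followed by a digit. This gave 37 probe sets for 36 genes of the 14506 genes with a single symbol. Each gene is represented by its brightest probe set over the 5 arrays, so Gsta4 alone had a further one. By family there were 8 UGT genes (7 of UGT2 and Ugt8), 17 GST genes and 11 SULT genes. A further 8 probe sets of these families carried several symbols and were not used, and no probe set with a single UGT1 symbol met the rule.

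RNA came from proximal tubular cells, the epithelium of the nephron's initial segment, isolated from the kidney of type I diabetic Sprague-Dawley rats. In 3 samples the cells had been kept with C-peptide, the peptide cut out of proinsulin, for 2 h, and in 2 samples they were left untreated. Every animal was diabetic in both groups, with no method of induction in the labels. Each of the 5 samples gave 1 Affymetrix whole-transcript array. The samples are numbered by animal within each group, and whether animals 1 and 2 of both groups are the same animals is not stated. The single comparison asks how C-peptide alters transcript levels in these cells within hours.

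Conjugation makes a compound more water-soluble so that it can leave in urine or bile. UGT enzymes sit in the endoplasmic reticulum and add glucuronic acid from UDP-glucuronic acid, most GST enzymes are cytosolic and add glutathione, and SULT enzymes are cytosolic and add sulfate from the donor PAPS. The proximal tubule takes up organic anions and cations from blood, carries out these reactions and secretes the products, and it also breaks glutathione conjugates down to mercapturates.

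The array medians were 60.1 to 95.9 in the deposited intensities, so the arrays were quantile-normalised, and the intensities below are normalised ones on a linear scale unless said to be as deposited. Differences are C-peptide minus untreated on the scale log2(intensity + 16), which understates the change of dim genes. The median difference of all genes was 0.03 after normalisation and -0.14 in the values as deposited. The 15 markers of the proximal tubule all lay above the median probe set intensity of 82.7, and so did the 12 markers of endothelium, a cell type that such a preparation can also hold. The array gives no detection call, and 17 of the 36 members were dimmer than the median probe set. In bulk samples of this kind, fewer cells of a type and less RNA per cell cannot be told apart.

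Of the 5 UGT2B genes, 4 were higher in the C-peptide-treated cells at unadjusted p under 0.05, as were 3 of 17 GST genes and 1 of 11 SULT genes. Whether the families differ was not tested. Ugt2b35 was 2.69-fold, Ugt2b7 1.94-fold, Ugt2b 1.80-fold and Ugt2b37 1.66-fold higher, on the scale with 16 added. Outside this group, Sult1b1 (1.56-fold), Gstm5 (1.55-fold), Gstk1 (1.42-fold) and Gsta1 (1.39-fold) were higher at the same unadjusted threshold. No member passed at adjusted p 0.05 in limma, nor did any of the 29215 probe sets (0%), and the smallest adjusted p among all probe sets was 0.0966. At unadjusted p under 0.05, 8 of 36 members (22.2%) were higher, against 5.94% of all genes, and 0 were lower, against 7.12% of all genes. All C-peptide arrays exceeded both untreated ones in 11 members (30.6%), against 18.7% of all genes, and fell short of both in 1, against 14.9% of all genes. The median difference was 0.22 over the 36 members and 0.03 over all genes, and 26 members lay above 0. In the values as deposited the members' median was 0.03 beside -0.14 for all genes, and without untreated animal 1 it was 0.09.

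**Figure D1:**
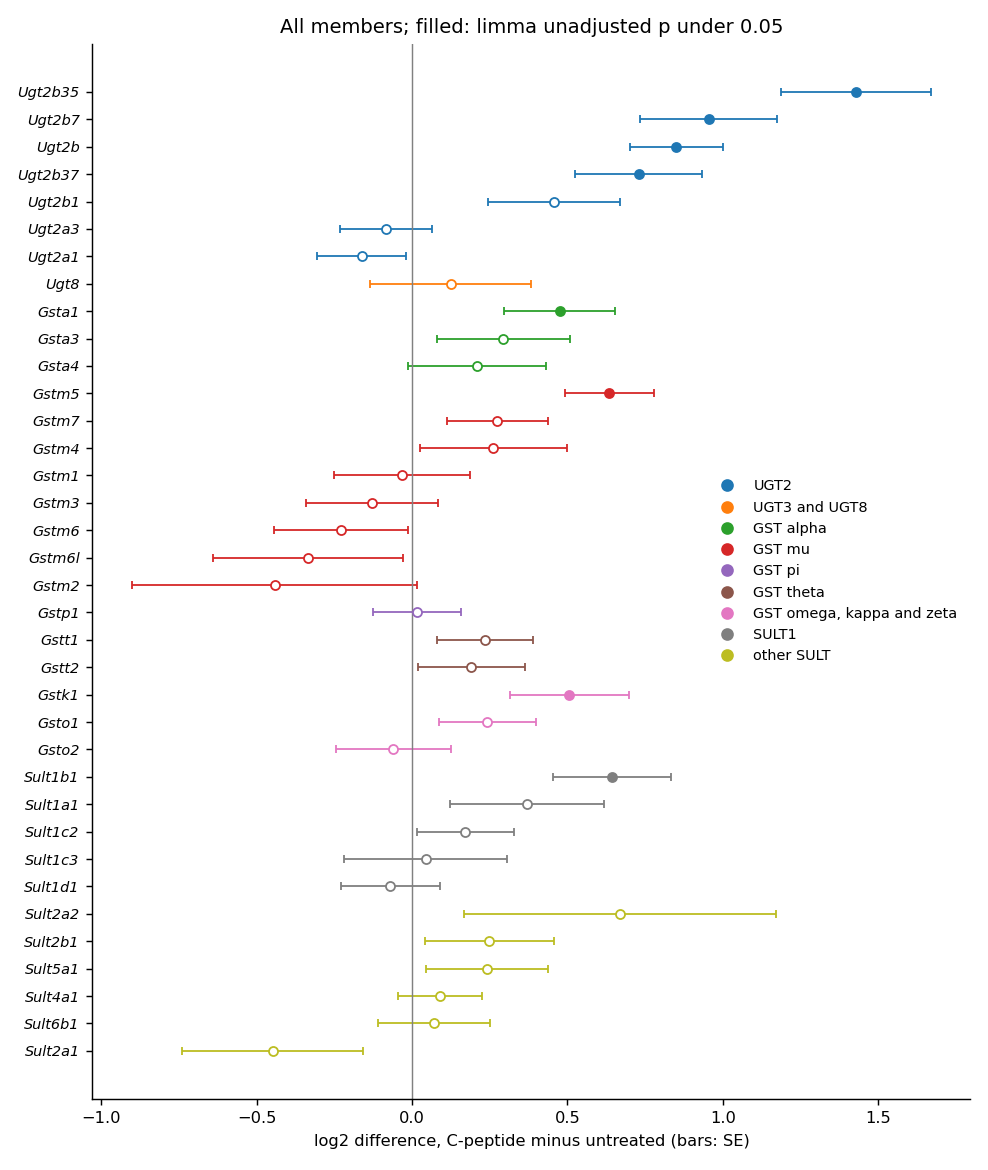
The log2 difference of each of the 36 members, C-peptide minus untreated, with its standard error (bars), grouped and coloured by class and filled where the limma unadjusted p was under 0.05. The 5 UGT2B genes lie between 0.46 and 1.43, while GST mu genes lie on both sides of 0, from -0.44 to 0.64.

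The UGT2 genes are shown first, with the sequences before the start sites of the UGT2B members, because 4 UGT2B neighbours had the largest differences of the family. UGT2B enzymes glucuronidate steroids, bile acids, fatty acids and many drugs. Below are the 120 bases before the start site of the 5 UGT2B members on the plus strand of GRCr8, from RefSeq, 5′ to 3′. Capitals mark the longest run of bases that the 4 genes at unadjusted p under 0.05 have in common, a stretch of 25 bases. It was sought after their values were seen, so its presence in those 4 was fixed by the search. The windows are chr14:21208321-21208440 for Ugt2b35, chr14:21251415-21251534 for Ugt2b7, chr14:20985329-20985448 for Ugt2b, chr14:21172016-21172135 for Ugt2b37 and chr14:21378762-21378881 for Ugt2b1.
Ugt2b35: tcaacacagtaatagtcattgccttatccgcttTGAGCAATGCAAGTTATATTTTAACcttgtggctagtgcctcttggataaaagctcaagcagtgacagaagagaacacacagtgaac
Ugt2b7: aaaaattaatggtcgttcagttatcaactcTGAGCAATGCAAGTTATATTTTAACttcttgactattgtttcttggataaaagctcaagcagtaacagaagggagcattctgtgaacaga
Ugt2b: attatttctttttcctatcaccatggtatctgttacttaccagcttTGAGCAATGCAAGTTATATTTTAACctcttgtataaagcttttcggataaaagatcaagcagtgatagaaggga
Ugt2b37: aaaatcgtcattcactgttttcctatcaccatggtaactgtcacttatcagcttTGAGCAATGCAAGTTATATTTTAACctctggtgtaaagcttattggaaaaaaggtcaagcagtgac
Ugt2b1: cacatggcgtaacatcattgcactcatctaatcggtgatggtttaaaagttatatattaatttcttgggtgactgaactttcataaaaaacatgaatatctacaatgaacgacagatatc

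The shared run begins 87 bases before the start site of Ugt2b35, 90 before that of Ugt2b7, 74 before that of Ugt2b and 66 before that of Ugt2b37. Its exact sequence is absent from the windows of Ugt2b1 and Ugt2a3, which were not used to define it. The Ugt2b1 window printed above holds a similar stretch, which differs in some bases from the last part of the run. Inexact copies were not counted, so the absence holds only for the exact run. Of the 33469 promoter windows in the RefSeq table, 7 hold it on either strand, namely those of these 4 genes, of Ugt2b15 and Ugt2b7l1, which are not members, and of a predicted locus. Over 250 bases before the start site, the 4 windows were identical at 53.2% to 65.0% of aligned columns. Against Ugt2b1 they were identical at 48.8% to 53.8%, and against Ugt2a3 at 45.6% to 49.5%. The run is a description of sequence, its relation to the differences was not tested, and no factor's binding was measured. UGT2B genes are known to be similar in their coding parts, though their identity there was not measured here. An array probe may take up RNA of a neighbouring UGT2B gene, which was not tested. The values of single UGT2B genes are uncertain to that extent.

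Ugt2b35 had normalised intensities of 158 and 242 on the arrays of untreated animals 1 and 2 and 499.9, 476 and 712 on those of C-peptide animals 1, 2 and 3. The lowest C-peptide array was well above the higher untreated array, and the group means were 199.8 ± 59.8 (SD, n = 2) and 563 ± 130 (SD, n = 3). Its log2 difference was 1.43 ± 0.24 (SE), with a limma adjusted p = 0.117, and in the values as deposited 1.20, with adjusted p = 0.0990. As deposited, its intensities were 178 and 259 without C-peptide and 361, 535 and 708 with it. Its adjusted p was 0.0211 when only probe sets brighter than the median were tested and 0.0367 with a trended and robust variance prior, in a range of 0.0211 to 0.777 over the alternatives.

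Ugt2b7 had intensities of 55.0 and 51.5 on the untreated arrays and 95.8, 104 and 164 on the C-peptide arrays. The groups did not overlap, with C-peptide animal 3 standing highest. The log2 difference was 0.95 ± 0.22 (limma adjusted p = 0.187), and as deposited the adjusted p was 0.435. It was 0.0478 when only probe sets with a mean above the median of 82.7 were tested. Both untreated arrays lay below that cut and the C-peptide arrays above it. Ugt2b7 thus entered that set only through its C-peptide arrays, and the 0.0478 depends on the difference it tests. Ugt2b had intensities of 46.8 and 52.9 without C-peptide and 94.4, 98.4 and 116 with it. The range within each group was narrower than the gap between them, and the log2 difference was 0.85 ± 0.15 (limma adjusted p = 0.125).

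Ugt2b37, a dim member, had intensities of 15.2 and 15.5 on the untreated arrays and 48.7, 25.2 and 36.7 on the C-peptide arrays. The untreated arrays nearly coincided, while the C-peptide arrays spread widely, the lowest of them still above both. Its log2 difference was 0.73 ± 0.20 (limma adjusted p = 0.256). For so dim a gene the size depends on the pseudocount, and the difference was 1.16 with 1 and 0.34 with 64 in place of 16. The other 3 varied less, with 1.03 and 0.55 for Ugt2b, 1.13 and 0.64 for Ugt2b7 and 1.497 and 1.25 for Ugt2b35, so that the order of the smaller folds is not fixed. Ugt2b1, the next member by p, had 14.9 and 20.9 untreated and 26.4, 23.2 and 43.9 with C-peptide. Its log2 difference of 0.46 ± 0.21 did not pass the unadjusted threshold (limma adjusted p = 0.469). It did pass with arrays centred on their medians, at 0.54, and without C-peptide animal 2, at 0.57, and was 0.27 without C-peptide animal 3. After normalisation its groups did not overlap, as in the other 4 UGT2B members, beside 18.7% of all genes. As deposited they did, with 20.8 in C-peptide animal 1 against 21.1 in untreated animal 2. The 4 genes Ugt2b35, Ugt2b7, Ugt2b and Ugt2b37 were higher at unadjusted p under 0.05 in the values as deposited too, where 0.614% of all genes were. They were so in every alternative that tested them with both untreated arrays, though some, such as current symbols, could not change them. Their differences stayed above 0 whichever array was left out.

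**Figure D2:**
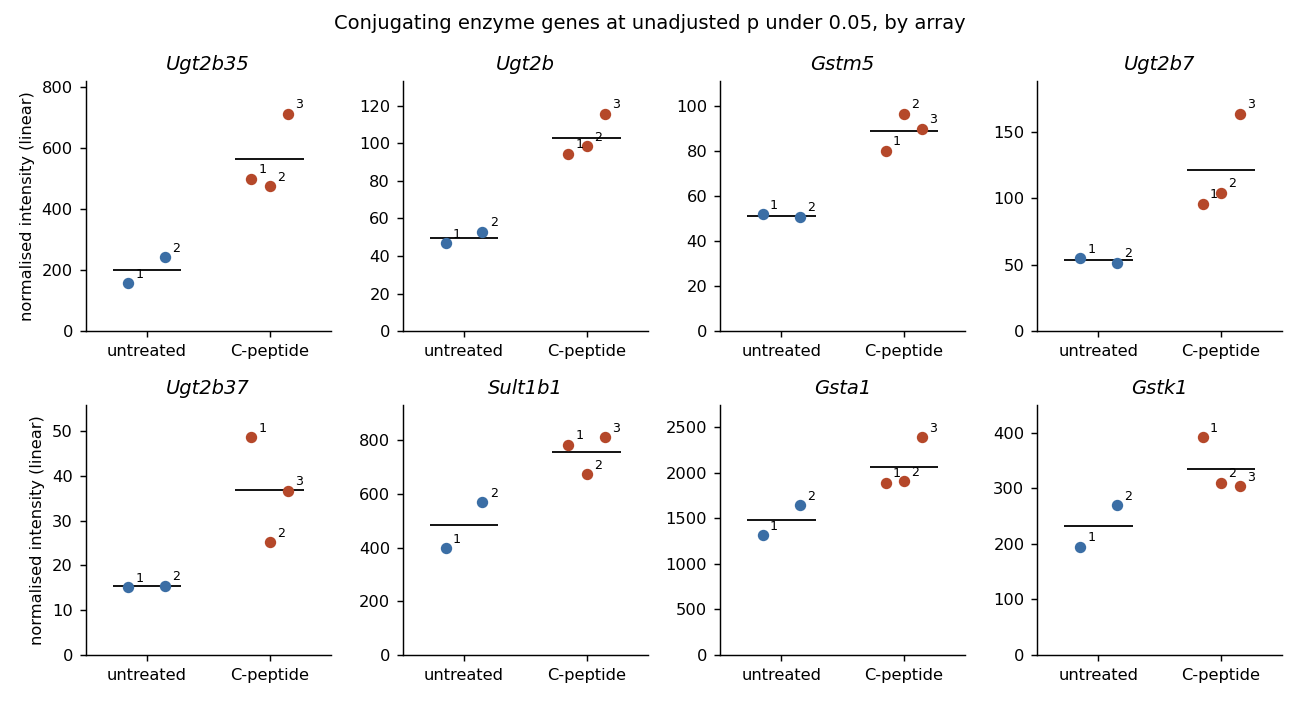
Normalised intensity on a linear axis from 0, by group, for the 8 members at unadjusted p under 0.05. Points are arrays, numbered by animal within their group, and the line is the group mean. In each panel all 3 C-peptide arrays lie above both untreated arrays, and C-peptide animal 3 is the highest array in 5 of the 8.

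The UGT2A genes stood apart from their UGT2B neighbours in value. Ugt2a1, an enzyme of the olfactory epithelium, had intensities of 15.9 and 14.4 on the untreated arrays and 13.6, 12.5 and 9.56 on the C-peptide arrays. It was the only member with every C-peptide array lower than both untreated ones, at a log2 difference of -0.16 ± 0.14 that did not pass (limma adjusted p = 0.724). Ugt2a3 had 24.4 and 22.0 untreated and 23.9, 17.1 and 22.1 with C-peptide, and a log2 difference of -0.08 ± 0.15. Both were dim, and both differences stayed below 0 under each scaling. Ugt8, which adds galactose to ceramide in myelin synthesis, had 62.4 and 74.8 untreated and 61.0, 116 and 60.3 with C-peptide. Its positive difference of 0.12 ± 0.26 rested on C-peptide animal 2, and was -0.14 without that array and -0.02 as deposited.

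In RefSeq's gene order on rat chromosome 14, Sult1d1, Sult1b1, Ugt2a1, Ugt2a3, Ugt2b, Ugt2b37, Ugt2b35, Ugt2b7 and Ugt2b1 follow each other, with 1 other coding gene between Ugt2a3 and Ugt2b, 2 between Ugt2b and Ugt2b37 and 2 between Ugt2b7 and Ugt2b1. Along this stretch the differences were -0.07, 0.64, -0.16, -0.08, 0.85, 0.73, 1.43, 0.95 and 0.46. Sult1b1, at 0.64, lies between Sult1d1 and Ugt2a1, which did not pass, and the UGT2B genes lie together at the far end. Neighbouring genes with similar exons are not independent measurements.

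**Figure D3:**
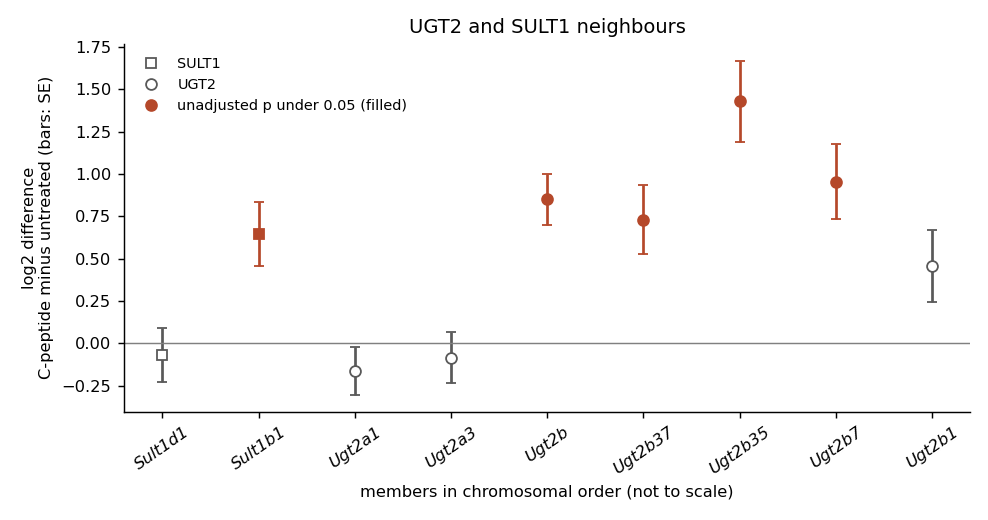
The log2 difference of the 9 members on chromosome 14, with its standard error (bars), in the order of the genes along the chromosome and not to scale. Squares are SULT1 and circles UGT2 genes, filled where the unadjusted p was under 0.05. Sult1b1 and 4 UGT2B genes are filled, and Sult1d1 (0.01 with arrays centred on their medians), Ugt2a1 and Ugt2a3 lie just below 0.

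Among the GST genes, 3 of 17 were higher at unadjusted p under 0.05 (17.6%, beside 5.94% of all genes) and 0 lower (beside 7.12%), with a median difference of 0.21. In the values as deposited 0 of 17 passed in either direction, and the median was 0.01. Gstm5, of the mu class, had intensities of 51.9 and 50.9 on the untreated arrays and 80.2, 96.7 and 89.9 on the C-peptide arrays. The gap between the groups was wider than the range within either, and the log2 difference was 0.64 ± 0.14 (limma adjusted p = 0.176). It kept its side of unadjusted p 0.05 in 13 of 14 alternatives, the exception being the values as deposited, at 0.49.

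Gsta1, of the alpha class, which is prominent in liver and tubule, had intensities of 1312.7 and 1645.5 on the untreated arrays and 1890.5, 1905.5 and 2387.3 on the C-peptide arrays. The groups were separated by a gap smaller than the distance between the untreated arrays, and the log2 difference was 0.47 ± 0.18 (limma adjusted p = 0.388). Gstk1, the kappa enzyme of mitochondria and peroxisomes, had 195 and 269.8 untreated and 392, 309.9 and 304 with C-peptide. Its log2 difference was 0.51 ± 0.19 (limma adjusted p = 0.393). Both rested in part on untreated animal 1, the lowest array for each. Without it the differences were 0.32 for Gsta1 and 0.29 for Gstk1, and as deposited they were 0.28 and 0.27, none of them past the unadjusted threshold. Gsta1 also lost it without C-peptide animal 3, at 0.36, with arrays centred on their medians, at 0.45, with a pseudocount of 1, at 0.48, and with the animal number as a block, at 0.37. Gstk1 also lost it without C-peptide animal 1, at 0.39, and with a pseudocount of 1, at 0.53.

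The other alpha genes were Gsta3, at a log2 difference of 0.29 ± 0.21, and Gsta4, which conjugates the lipid peroxidation product 4-hydroxynonenal, at 0.21 ± 0.22 and 0.10 in its further probe set. All 3 alpha genes lay above 0 under each scaling, down to 0.055 for Gsta3 and 0.03 for Gsta4 as deposited. Gsta3 was -0.04 when untreated animal 1 was left out and 0.63 when untreated animal 2 was, and Gsta4 was 0.07 without C-peptide animal 1 and 0.42 without C-peptide animal 2. The mu class was divided, with 3 genes above 0 and 5 below under each scaling, and its median was -0.08. Gstm7 was the next GST gene by p, with 155 and 149 untreated, 158, 199 and 208 with C-peptide and a log2 difference of 0.27 ± 0.16 that did not pass (limma adjusted p = 0.575). Gstm4 was at 0.26 ± 0.24, Gstm3 at -0.13 ± 0.21, Gstm6 at -0.23 ± 0.21, Gstm6l at -0.33 ± 0.30 and Gstm2 at -0.44 ± 0.46. Gstm2 had 245 and 209 untreated and 70.0, 243 and 238 with C-peptide, and without C-peptide animal 1, its lowest array, the difference was 0.09. Gstm1 had the brightest probe set of the class, with 499 and 454 untreated and 349, 576 and 498 with C-peptide. Its groups overlapped, and its difference of -0.03 ± 0.22 was 0.17 without C-peptide animal 1. Mu genes lie in tandem and are known to be similar, though their identity was not measured here. Single mu values carry the same uncertainty as those of UGT2B.

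Gstp1, the pi enzyme, had 548 and 577 on the untreated arrays and 526, 610.0 and 573 on the C-peptide arrays. The arrays were nearly level, and the log2 difference of 0.02 ± 0.14 was -0.18 as deposited and -0.02 with arrays centred on their medians. Gsto1, of the omega class, which reduces dehydroascorbate, had 967 and 1201 untreated and 1201, 1277 and 1359 with C-peptide. Its log2 difference was 0.24 ± 0.16 (limma adjusted p = 0.613), with C-peptide animal 1 level with untreated animal 2. Gsto2 was dim and at -0.06 ± 0.18, and 0.01 with arrays centred on their medians. Gstt1, of the theta class, which conjugates small halogenated hydrocarbons, had 344 and 286 untreated and 399, 341 and 379 with C-peptide, a log2 difference of 0.24 ± 0.15. Gstt2 was at 0.19 ± 0.17, and -0.04 as deposited.

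The 120 bases before the start site of Gstm5 (chr2:198219649-198219768, plus strand, GRCr8, RefSeq) are given because Gstm5 had the smallest p of the GST genes. Capitals mark the core of the antioxidant response element, TGACNNNGC, which NRF2 with small MAF proteins is known to bind, at -113 to -105 and -53 to -45 from the start site.
Gstm5: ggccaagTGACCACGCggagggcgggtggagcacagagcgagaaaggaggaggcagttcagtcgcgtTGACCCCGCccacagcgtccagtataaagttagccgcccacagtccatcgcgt

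Searched on both strands from 250 bases before to 50 after the start site, this core was in 5 of the 31 members with a window in the table (16.1%) and in 12.1% of all windows. The 5 were Gsta1, Gsta3, Gstm5, Gstm7 and Gstp1, with differences of 0.47, 0.29, 0.64, 0.27 and 0.02. The core of the xenobiotic response element, GCGTG, was in 6 members (19.4%, against 29.7% of all windows), and it overlaps the antioxidant core at -109 to -105 of Gstm5. GTTAAT, part of the site of the tubular and hepatic factor HNF1, was in 4 members (12.9%, against 7.45%), namely Gsta1, Gsta3, Sult2a2 and Ugt2a3. AGGTCA, a nuclear receptor motif, was in 3 (9.68%, against 16.2%), namely Gstm1, Ugt2a3 and Ugt2b37. These matches describe exact letters in a short window, so variants of these sites, in the UGT2B windows or elsewhere, were not counted. No binding was measured.

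Among the SULT genes, 1 of 11 was higher at unadjusted p under 0.05 (9.09%, near the 5.94% of all genes) and 0 lower (beside 7.12%), with a median difference of 0.17. In the values as deposited 0 of 11 passed, and the median was 0.04. Sult1b1, which sulfates thyroid hormones and small phenols, had intensities of 399 and 569.8 on the untreated arrays and 785, 675 and 812 on the C-peptide arrays. All C-peptide arrays were above both untreated arrays, which differed from each other more than the C-peptide arrays did. The log2 difference was 0.64 ± 0.19 (limma adjusted p = 0.277). It was 0.40 without untreated animal 1 and 0.44 as deposited, where it did not pass the unadjusted threshold. Sult1c2 had the brightest probe set of its class, with 3914 and 4512 untreated and 4356, 4599 and 5299 with C-peptide, and a log2 difference of 0.17 ± 0.16. Sult1a1, a phenol sulfotransferase, was at 0.37 ± 0.25, Sult1c3 at 0.04 ± 0.26 and Sult1d1 at -0.07 ± 0.16, and the groups overlapped in each of these 4 genes.

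The hydroxysteroid sulfotransferases varied between the C-peptide animals. Sult2a2 had 51.5 and 61.8 on the untreated arrays and 158, 35.4 and 155 on the C-peptide arrays, so that C-peptide animal 2 lay below both untreated arrays and the other two lay above. Its log2 difference was 0.67 ± 0.50 (limma adjusted p = 0.673), and 1.25 without C-peptide animal 2 (adjusted p = 0.0966, in a range of 0.0966 to 0.9505 over the alternatives). Sult2a1, with the lowest p among members below 0, had 19.5 and 8.53 untreated and 15.4, 3.11 and 0.892 with C-peptide. At such intensities its log2 difference of -0.45 ± 0.29 (limma adjusted p = 0.615) has no firm size. Without C-peptide animal 1 it was -0.73 and passed the unadjusted threshold. Sult2b1, which sulfates cholesterol, had 148 and 91.9 untreated and 129, 138 and 160.5 with C-peptide, and its difference of 0.25 ± 0.21 was -0.06 without untreated animal 2. Sult5a1, Sult4a1 and Sult6b1 were dim and at 0.24 ± 0.20, 0.09 ± 0.13 and 0.07 ± 0.18.

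Across arrays the members were lowest in untreated animal 1 and highest in C-peptide animal 3. Relative to each gene's own mean, the median log2 value of the 36 members was -0.19 and -0.04 in untreated animals 1 and 2 and 0.04, 0.08 and 0.17 in C-peptide animals 1, 2 and 3. Untreated animal 1 was the lowest array for 15 members and C-peptide animal 3 the highest for 14. The step between untreated animal 2 and C-peptide animal 1 was smaller than that between the untreated animals.

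**Figure D4:**
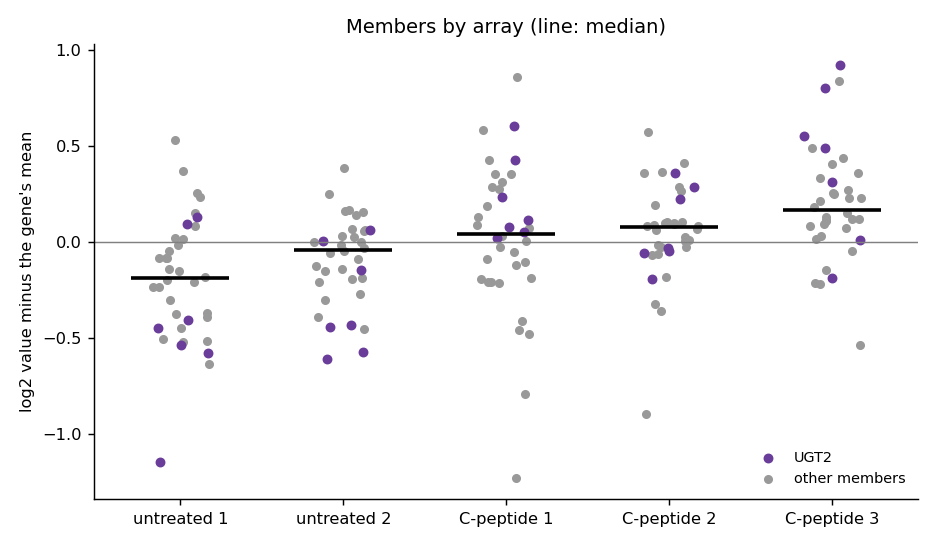
The log2 value of each of the 36 members minus that gene's mean over the 5 arrays, by array, with UGT2 genes in purple, other members in grey and the median as a line. The medians run from -0.19 in untreated animal 1 to 0.17 in C-peptide animal 3, and the members spread widely on every array.

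Genes that supply or follow these reactions were counted from lists of known pathway members. Among all genes 5.94% were higher and 7.12% lower at unadjusted p under 0.05, and in the values as deposited 0.614% and 7.03%, and the counts of each list are given under both. For glucuronidation, 2 of 8 genes were higher at unadjusted p under 0.05 and 0 lower, with a median of 0.12, and as deposited 0 passed, with a median of -0.09. They were Ugdh, which makes UDP-glucuronic acid (529 untreated and 862 with C-peptide on average, log2 difference 0.67 ± 0.21), and Slc35d1, which carries it into the endoplasmic reticulum (0.53 ± 0.17), ahead of Pgm1 (0.40 ± 0.18), which did not pass. For sulfation, 2 of 11 were higher and 2 lower, with a median of 0.22, and as deposited 1 was higher (Slc26a1) and 2 lower, with a median of -0.01. Slc26a1, a sulfate and anion exchanger, was at 0.85 ± 0.24, Tpst2, which sulfates tyrosines of proteins, at -0.57 ± 0.18, and Arsb, a lysosomal sulfatase, at -0.43 ± 0.15. Chosen after a look at the values, Bpnt1, which clears the by-product PAP, was at 0.39 ± 0.15, and the donor synthases Papss1 and Papss2 were at 0.22 ± 0.17 and 0.28 ± 0.14, neither past the threshold.

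For glutathione supply, reduction and the mercapturate steps, 11 of 24 genes were higher and 0 lower at unadjusted p under 0.05, with a median of 0.32. As deposited only Gss was higher and 0 were lower, with a median of 0.13. Gss, which completes glutathione, was at 0.82 ± 0.15, Ggt1, the brush border enzyme that opens glutathione conjugates, at 0.70 ± 0.15, and Nat8, which acetylates the cysteine conjugates, at 0.77 ± 0.20. The list of transferases outside the rule also held the chloride intracellular channel genes Clic1, Clic3 and Clic4. Of its 9 genes 2 were higher, Mgst1 at 0.55 ± 0.16 and Ptges, which makes prostaglandin E2, at 0.44 ± 0.16. Hpgds followed at 0.40 ± 0.18 and did not pass. The median of the list was 0.08, and as deposited 0 passed and it was -0.03. Of other conjugating and partner enzymes 8 of 20 were higher and 0 lower, led by Hnmt, which methylates histamine (0.89 ± 0.15), Fmo4 (0.81 ± 0.18) and Tpmt, which methylates thiopurines (0.45 ± 0.13), with a median of 0.24. As deposited 2 were higher, Hnmt and Ephx2, and the median was 0.13. Of carriers that take up substrates or export conjugates, 8 of 15 were higher and 0 lower, with a median of 0.48, led by Slc17a3 (0.89 ± 0.18), Abcb1a (0.73 ± 0.16) and Slc17a1 (0.75 ± 0.19). As deposited 3 were higher (Slc17a3, Abcb1a and Slc22a6) and 1 lower (Abcc1), with a median of 0.29. Of transcription factors known to act on these genes, 4 of 19 were higher and 1 lower, with a median of 0.15, and as deposited 1 was higher (Hnf4g) and 1 lower (Cebpb), with a median of -0.05. Hnf4g was at 0.82 ± 0.15, Nr1h4, the bile acid receptor, at 0.63 ± 0.20 and Cebpb at -0.53 ± 0.19. Also chosen after a look at the values were Hnf4a (0.50 ± 0.19) and Bach1 (0.62 ± 0.24), the remaining genes past the unadjusted threshold, and Nfe2l2, which encodes NRF2 (0.15 ± 0.13), and Nr1i2, the pregnane X receptor (0.28 ± 0.19), which did not pass. None of these genes passed at adjusted p 0.05 in limma. The cytochrome P450 genes, which act before conjugation, had a median of 0.11 over 69 genes, with 14 higher and 3 lower at the same threshold, and as deposited a median of 0.01, with 4 higher and 3 lower.

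Markers of cell types differed between the same groups, where 5.94% of all genes were higher and 7.12% lower at unadjusted p under 0.05. Of 15 proximal tubule markers 6 were higher and 0 lower at unadjusted p under 0.05, with a median of 0.37 and Cubn (0.75 ± 0.17) and Lrp2 (0.80 ± 0.20), the endocytic receptors, in front. Their summed intensity was 30058 to 35284 on the untreated and 36893 to 49120 on the C-peptide arrays. Of 8 markers of the late proximal tubule, listed with earlier results of these arrays known, 5 were higher and 0 lower, with a median of 1.18. The 5 were led by Kap (2.52 ± 0.29) and Cyp2d2 (1.86 ± 0.21). In 1 of the 8 every C-peptide array was below both untreated ones, beside 14.9% of all genes. The sum of the 8 was 3826 to 3837 untreated and 6607 to 8888 with C-peptide. Of 12 endothelial markers 11 were lower, with a median of -1.13, a sum of 20393 to 23163 untreated and 8414 to 12956 with C-peptide, and Tek (-1.26 ± 0.21) and Ehd3 (-1.46 ± 0.26) in front. Of 13 immune cell markers 7 were lower (median -0.46, sums 3893 to 3942 and 2563 to 3310, Aif1 at -0.80 ± 0.17 and Laptm5 at -0.62 ± 0.17), and of 5 podocyte markers 2 were (median -0.36, sums 2467 to 3112 and 1035 to 1630, Podxl at -1.32 ± 0.26 and Synpo at -0.65 ± 0.21). As deposited these counts were the same for late proximal, endothelial, immune and podocyte markers, and 3 of 15 were higher for the proximal tubule. No marker of any list was at 0 on every array. The part of these marker differences in those of the members was not tested.

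In other marker lists at most 1 gene passed the unadjusted threshold. The medians were 0.13 for thick limb and distal tubule (1 of 9 higher, Slc12a3 at 0.69 ± 0.23, before Calb1 at 0.48 ± 0.23), 0.21 for collecting duct (0 of 11, Scnn1b at 0.39 ± 0.17 and Aqp4 at 0.40 ± 0.19), -0.16 for stroma and smooth muscle (0 of 9, Pdgfrb at -0.36 ± 0.16 and Tagln at -0.36 ± 0.19) and -0.08 for red blood cells (0 of 4, Ahsp at -0.15 ± 0.20 and Alas2 at 0.10 ± 0.29). The 8 liver markers, of which 7 were dim, had a median of 0.10, with Cyp2c11 higher at unadjusted p under 0.05 (0.41 ± 0.15) and Alb at -0.42 ± 0.22. As deposited 0 genes of these lists passed, and the medians of thick limb, collecting duct and liver turned to -0.05, -0.02 and -0.06.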

How the data were processed

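The deposited intensity of each probe set is linear, with 1 column per sample. The submitters' processing notes name PLIER and Affymetrix Expression Console 1.1, and the sources used here do not state background correction, scaling or filters. The 29215 probe sets took their symbols from the platform annotation, where 15310 had a single symbol, 323 several and 13582 none, and all 36 members were found by gene ID in RefSeq (GRCr8) under the same symbols.

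Because the array medians differed, intensities were quantile-normalised, and then taken to log2(intensity + 16). A model with a single group term was fitted to all 5 arrays and all probe sets in limma 3.58.1 (lmFit, eBayes, two-sided test) under R 4.3.3, and adjusted p-values are Benjamini-Hochberg values over all probe sets. Scripts were tested on simulated data. The number of arrays limits the precision. The members and lists were chosen with earlier results of these data known.

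Values were printed by array for members at unadjusted p under 0.05, for the next 2 by p in each direction and for the brightest of each class. Up to 3 genes by p were named per pathway list and 2 per marker list. Members printed beyond this rule (Ugt2a3, Gstm2 and Sult2a2 by array) were chosen after their values were seen. Alternatives were the values as deposited, median centring, other pseudocounts, a filter on dim probe sets, averaging Gsta4 and other genes over probe sets, current symbols, other variance priors, array weights, the animal number as a block and leaving out each array. Protein identity was not analysed here.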

Additional observations from a re-analysis of the deposited data

How the results depend on the processing

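Ugt2b35, Ugt2b7, Ugt2b and Ugt2b37 stayed above 0 in each alternative that tested them (15, 15, 14 and 14). Current symbols changed no member and averaging over probe sets left the differences of these 4 as they were. Those alternatives could not move them. In the alternatives with both untreated arrays the 4 were higher at unadjusted p under 0.05. The 8 members higher at that threshold became 4 in the values as deposited (those 4 alone) and 5 among probe sets above the median intensity, where 3 of the 8 were not tested. With arrays centred on their medians they were 8, with Ugt2b1 in place of Gsta1. They numbered 7 to 10 with single C-peptide arrays left out, 6 with a pseudocount of 1 and 8 with 64. The share of all genes at this threshold was counted only for the main values and those as deposited. Counts of members in the other alternatives thus have no background beside them. In those leave-outs, 0 to 1 members were lower at unadjusted p under 0.05, the 1 being Sult2a1 without C-peptide animal 1. At adjusted p 0.05 the 0 members became 2 among the brighter probe sets, where fewer were tested, and 1 with the trended and robust prior. They stayed 0 in the other alternatives that kept both untreated arrays. The 2 were Ugt2b35 and Ugt2b7, and Ugt2b7 entered the brighter set only through its C-peptide arrays. The share of all probe sets that passed in these settings was not counted, so the 2 and the 1 have no background beside them. The members' median of 0.22 was 0.0255 as deposited, 0.19 after centring and 0.094 to 0.26 with single arrays left out, 0.094 without untreated animal 1. Among all genes, 861 were higher and 1033 lower at unadjusted p under 0.05, and 89 and 1020 as deposited.

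Signs turned in 4 of the 19 members named by the rule. Gstp1 (0.02) was -0.18 as deposited, -0.016 after centring and -0.033 to 0.070 with single arrays left out. Ugt8 (0.12) was -0.017 as deposited and -0.14 to 0.26 with single arrays left out. Gstm1 (-0.03) was 0.069 with array weights and -0.18 to 0.17 with single arrays left out, and Sult2b1 (0.25) was -0.056 to 0.55. The arrays whose absence turned a sign were C-peptide animal 2 and untreated animal 1 for Gstp1, C-peptide animal 2 for Ugt8, C-peptide animal 1 and untreated animal 1 for Gstm1 and untreated animal 2 for Sult2b1. The cause was not tested.

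With the animal number as a replicate block, 7 members were higher at unadjusted p under 0.05, all among the 8, and Gsta1 was not (adjusted p = 0.630). Whether same-numbered arrays come from the same animal is not stated. Their deviations from group means correlated at -0.025 and 0.008, and with 2 untreated arrays, whose deviations mirror each other, this cannot settle it.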
